A study of Mus musculus with 9 samples.

Results

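Imprinted genes were examined in bulk RNA-seq of whole mouse retina at postnatal day 21 (P21). The genes were a list of 49 known imprinted mouse genes, matched to the gene table by symbol, and 48 of the 49 were found among its 55487 genes. Nespas was not found under that symbol. The antisense transcript listed as Gnasas1, which a gene name table gives as Nespas, read 0.353 to 1.25 CPM and is not counted among the 48. CPM are the reads of a gene per 1000000 reads assigned to genes in a library. Of the 48 genes, 42 reached 0.5 CPM in at least 3 libraries and were tested. The 6 that did not were Phlda2, Slc22a18, Ascl2, Klf14, Asb4 and Calcr. Dlk1 and Magel2 were among the 42 only through Tet tcKO, since 0 and 2 of their 6 control libraries reached 0.5 CPM. Being tested, Dlk1 had to be higher there. For Magel2 the filter favoured a higher value there without fixing it. Counts that include either gene are descriptions.

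The 3 genotypes compared, all on a C57 BL/6J background, had 3 libraries each. Tet tcKO retinas carried loxP-flanked alleles of all 3 Tet genes, Tet1, Tet2 and Tet3, on both chromosomes, together with the Chx10::Cre-GFP transgene. The tHet retinas carried the same transgene with a single loxP-flanked copy of each Tet gene. Cre- retinas lacked the transgene, and the labels give their genotype as WT. Chx10 drives the Cre in retinal progenitors. The transgene is known to be mosaic, and Cre+ breeders were in-crossed to gain copies of it. Cre- animals came from separate breeders, so breeding line and genotype cannot be told apart between Cre- and the other groups. Each library pooled the retinas of a pair of animals.

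Imprinted genes are expressed mainly or only from the maternal or the paternal chromosome. The choice is laid down in the germ line as DNA methylation of imprinting control regions, and is kept through later cell divisions. TET enzymes oxidise 5-methylcytosine, the first step of active demethylation. In the brain several imprinted genes are widely transcribed, among them Meg3, Peg3, Ube3a and Snrpn. Whole-gene read counts hold no allele information, so levels here are the sum of both parental copies.

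The promoters of 4 genes whose values are described below are shown because methylation acts on CpG dinucleotides, which are printed in capitals. Each is the 250 bases before a RefSeq transcription start on GRCm38.p6, 5′ to 3′ on the strand of the gene. They lie at chr2:157559828-157560077 (Nnat, plus strand), chr10:13090582-13090831 (Plagl1, plus strand), chr12:109452573-109452822 (Dlk1, plus strand) and chr6:58907127-58907376 (Nap1l5, minus strand).
Nnat: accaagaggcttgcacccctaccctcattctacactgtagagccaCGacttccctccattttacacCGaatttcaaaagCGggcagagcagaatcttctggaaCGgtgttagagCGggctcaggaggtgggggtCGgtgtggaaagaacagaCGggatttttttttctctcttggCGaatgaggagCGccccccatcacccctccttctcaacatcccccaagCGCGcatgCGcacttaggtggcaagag
Plagl1: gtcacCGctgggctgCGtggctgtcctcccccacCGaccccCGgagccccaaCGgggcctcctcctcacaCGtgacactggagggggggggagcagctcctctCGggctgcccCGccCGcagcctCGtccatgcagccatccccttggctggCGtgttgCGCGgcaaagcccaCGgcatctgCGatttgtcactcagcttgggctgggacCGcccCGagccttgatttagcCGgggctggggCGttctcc
Dlk1: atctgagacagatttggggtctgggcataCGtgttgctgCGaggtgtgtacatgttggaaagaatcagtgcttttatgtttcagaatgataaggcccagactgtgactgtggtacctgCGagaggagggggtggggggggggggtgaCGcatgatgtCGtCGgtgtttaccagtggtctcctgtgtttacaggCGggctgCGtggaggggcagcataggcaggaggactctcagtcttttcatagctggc
Nap1l5: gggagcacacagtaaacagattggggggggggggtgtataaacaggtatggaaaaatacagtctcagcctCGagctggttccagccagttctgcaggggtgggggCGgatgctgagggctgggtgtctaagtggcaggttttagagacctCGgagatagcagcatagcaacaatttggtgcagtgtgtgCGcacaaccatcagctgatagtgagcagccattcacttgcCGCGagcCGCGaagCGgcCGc
The Plagl1 window held 19 CpG, Nnat 12, Nap1l5 10 and Dlk1 8. RefSeq windows were at hand for 38 of the 49 genes, 56 windows in all, with a median of 10 CpG against 6 over all 32851 windows. TGCCGC, the core motif that ZFP57 binds when methylated, was searched on both strands. It occurred in 9 of the 56 windows (16.1%) and in 8.68% of all windows. The 9 include overlapping windows of Mest that hold the same matches. Counted by gene, 8 of the 38 had it, against 2660 of 27025 over all windows. TGCCGC itself holds a CpG, and the part of the higher CpG content in this difference was not tested. The Plagl1 and Nap1l5 windows held the motif, 90 and 24 bases from the start site. These letters were not in the Nnat and Dlk1 windows.

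The libraries held 9627927 to 21108256 reads on genes, so that 1 read was worth 0.0474 to 0.104 CPM. Reads of the ribosomal gene CT010467.1 made up 28.7% of Tet tcKO replicate 3, 3.72% of tHet replicate 3 and at most 0.226% of the others. Taking them out of the totals raised the median log2 fold change of all genes by 0.14 in Tet tcKO versus Cre- and by 0.13 in Tet tcKO versus tHet. Tet3 read 213 to 268 CPM in Cre-, 155 to 288 in tHet and 99.2 to 152 in Tet tcKO, with a log2FC of -0.99 (SE 0.25, adjusted p = 0.0174) versus Cre-, and none of the 3 Tet genes reached the call defined below. Whole-gene counts include exons outside the deleted part and therefore do not check the deletion. The lists of 10 markers per cell type shifted between genotypes. Rod markers summed to 38432 to 44501 CPM in Cre-, 32633 to 41528 in tHet and 5633 to 13926 in Tet tcKO, and cone markers to 656 to 783, 718 to 884 and 1896 to 2969. Ciliary body and vitreous matrix markers summed to 119.9 to 167, 342 to 504 and 442 to 582 CPM, pigment epithelium markers to 60.6 to 237, 202 to 290.0 and 49.7 to 68.6, and connective tissue and mural markers to 64.5 to 99.6, 92.7 to 135 and 107 to 222. In bulk tissue, fewer cells of a type and less RNA per cell cannot be told apart, and the part of these shifts in the values of the imprinted genes was not tested.

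Imprinted transcripts of the P21 retina ranged from the abundant noncoding RNA Meg3 to genes with a few reads per library. The mean over the 9 libraries was at least 100 CPM for 11 of the 42 genes and under 1 CPM for 4. Per kilobase of annotated exon, the mean level of Meg3 was the highest at 135 CPM, followed by Nap1l5 (72.5), Impact (36.5), Snrpn (33.3), Zrsr1 (31.4) and Peg3 (29.6). At the low end were Peg12 (0.318), Magel2 (0.160) and Dlk1 (0.0521). Phlda2, which restrains placental growth, had 0 reads in all 9 libraries, which allows up to 0.142 to 0.312 CPM (3 reads) depending on the library. Ascl2, a transcription factor of the placenta, and Slc22a18, a transporter gene next to Phlda2, had 3 reads each over the 9 libraries. Klf14 had 1, Asb4 19 and Calcr 27.

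**Figure D1:**
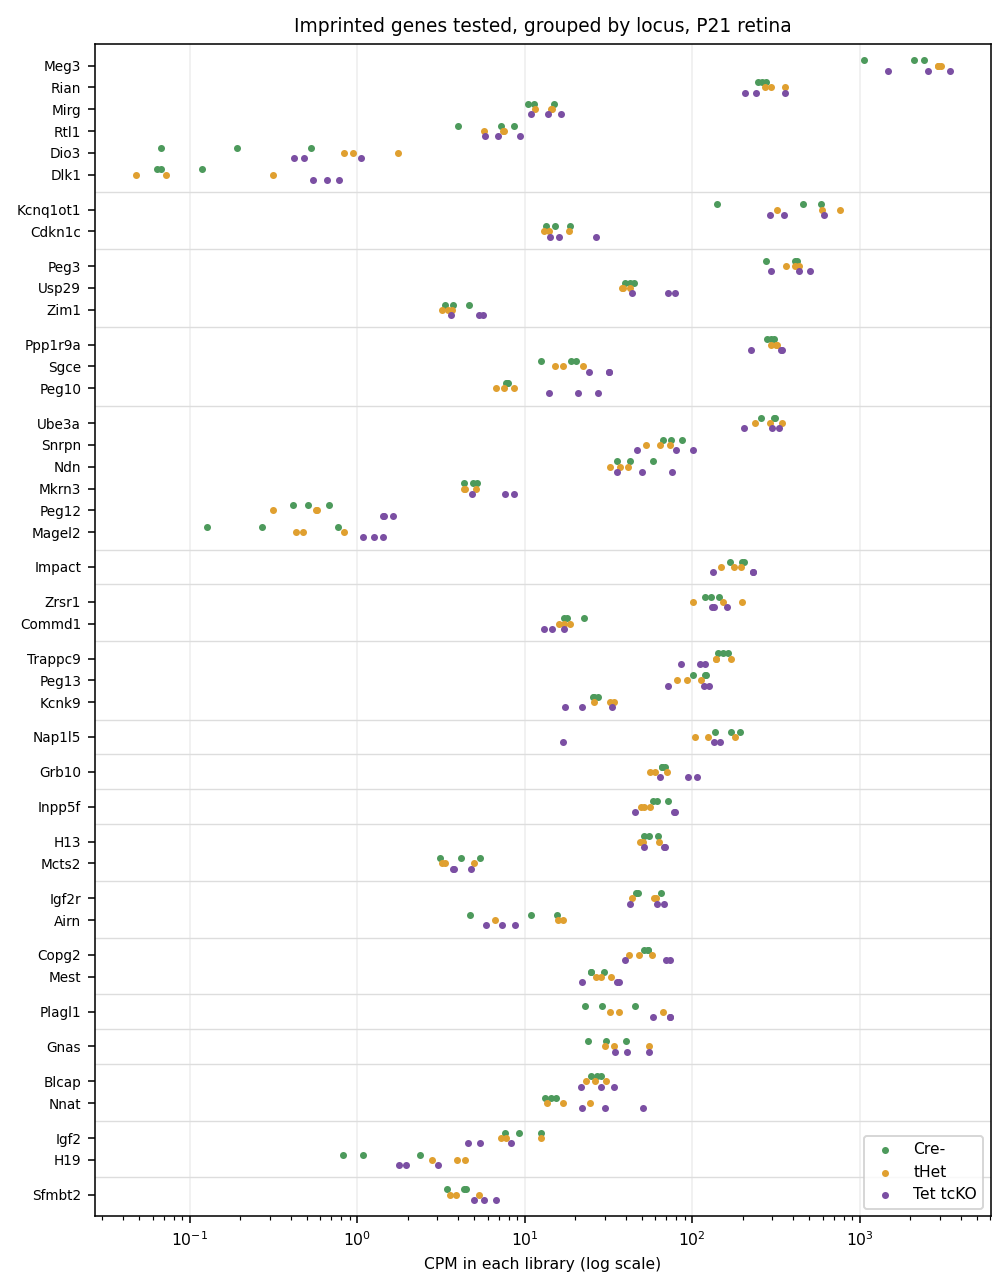
CPM of the imprinted genes in each of the 9 libraries on a log axis, grouped by imprinted locus, with 1 point per library coloured by genotype. For most genes the 3 genotypes are intermixed, while the Tet tcKO points lie to the right of all others for Peg10, Sgce, Peg12, Magel2 and Dlk1 and to the left for Trappc9.

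For most imprinted genes the Tet tcKO libraries overlapped the controls. A gene was called when its log2 fold change was at least 1 in size with an adjusted p under 0.01 (limma on log2(CPM + 0.5), Benjamini-Hochberg over 21330 genes). Fold changes on this scale understate those of low genes. Peg10, which rose, was the 1 gene of 42 called in Tet tcKO versus Cre-, where 3.60% of all genes were called and 2.03% were called higher. In Tet tcKO versus tHet it was again the 1 call of 42, where 3.00% of all genes were called and 1.39% were called higher. As 1 of 42 (2.38%), the share called lay below the background in either direction and above it for higher calls, a difference that rests on 1 gene. The comparisons share their Tet tcKO libraries.

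At an adjusted p under 0.05 regardless of fold, 4 of the 42 genes passed versus Cre- (Peg10, Nnat, Plagl1 and Dlk1), against 6.50% of all genes. All 4 were higher, and 3.53% of all genes were higher by that rule. Dlk1 is among them only through the filter noted above. Versus tHet Peg10 alone passed, against 5.95%, and this count did not hold under other scalings. TMM and upper-quartile scaling, totals without CT010467.1, edgeR and DESeq2 gave 5 or 6 genes versus tHet (11.9% to 14.3%), against 7.84% to 11.1% of all genes. Peg10, Sgce and Usp29 were in all 5 of these sets, and Peg12 too. Versus Cre- these 5 alternatives gave 5 to 9 genes (11.9% to 21.4%), against 8.86% to 11.6% of all genes. Peg10, Dlk1 and Sgce were in all 5, while Nnat, Usp29 and Trappc9 were in 4 each and Plagl1 in 2. Trappc9 was lower and the others named were higher. Without adjustment, p was under 0.05 versus Cre- for 10 genes (16.1% of all genes), 8 of them higher (8.59%) and 2 lower (7.47%). Versus tHet it was under 0.05 for 10 genes (17.5%), 9 higher (6.90%) and 1 lower (10.6%).

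The median log2FC of the 42 genes was 0.17 versus Cre- and 0.10 versus tHet, and that of all genes tested was 0.00 and -0.06. Versus Cre-, 32 of the 42 estimates lay above 0, against 50.1% of all genes, a count that ranged from 27 with upper-quartile scaling to 36 without the CT010467.1 reads. Versus tHet 27 lay above 0, against 44.3%. Every Tet tcKO library was higher than every Cre- library for 8 genes (10.0% of all genes) and lower for 1 (9.60%). Against tHet this held for 6 genes higher (7.35%) and 1 lower (9.68%). Both counts of higher genes include Dlk1 and Magel2, which were tested only through the filter noted above, so these counts are descriptions.

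Against both controls together, 5 genes were higher in every Tet tcKO library than in all 6 others, namely Peg10, Sgce, Peg12, Magel2 and Dlk1, an order found in 5.32% of genes tested. Dlk1 and Magel2 entered only through the filter noted above, here and in the count of 12 below, so these counts are descriptions. Trappc9 was lower in every Tet tcKO library, an order found in 4.82%. These orders depended on the ribosomal reads of Tet tcKO replicate 3. With CT010467.1 left out of the totals, 12 of the 42 genes were higher in every Tet tcKO library (13.8% of all genes), with Usp29, Plagl1, Mkrn3, Sfmbt2, Grb10, H13 and Zim1 added, and Trappc9 was still the 1 gene lower (4.37%). An exact two-sided permutation test of 3 libraries against 3 cannot give a p below 0.1, so tests of single genes rest on the fit across all genes.

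The only call lay in the Peg10 and Sgce pair on chromosome 6, both expressed from the paternal copy. Peg10 (ENSMUSG00000092035.8, chr6:4747306-4760517, plus strand) derives from a retrotransposon and encodes gag- and pol-like proteins. Sgce (ENSMUSG00000004631.15, chr6:4674350-4747207, minus strand) encodes epsilon-sarcoglycan. The pair is transcribed divergently, with 98 bases between the annotated genes. Peg10 read 7.77, 7.70 and 7.97 CPM in Cre-, 6.77, 7.48 and 8.57 in tHet and 27.4, 20.9 and 13.97 in Tet tcKO. The 6 control libraries were close together and every Tet tcKO library lay above them, although the Tet tcKO libraries themselves were spread. The log2FC of Peg10 was 1.30 (SE 0.27, adjusted p = 0.00431) versus Cre- and 1.34 (SE 0.27, adjusted p = 0.00388) versus tHet. With single libraries left out it lay between 1.08 and 1.60, but the call was lost versus Cre- without Cre- replicate 2 or 3 or Tet tcKO replicate 1 or 2. Versus tHet the call was lost without tHet replicate 1 or 2 or Tet tcKO replicate 1 or 2. The highest adjusted p, without Tet tcKO replicate 1, was 0.04996 versus Cre- (log2FC 1.08) and 0.0476 versus tHet (log2FC 1.12).

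Sgce read 12.5, 20.2 and 18.8 CPM in Cre-, 16.9, 22.3 and 15.1 in tHet and 31.6, 31.7 and 24.02 in Tet tcKO. As deposited, the lowest Tet tcKO library was just above the highest control. Without CT010467.1 in the totals, Sgce read 31.7 to 33.7 CPM in Tet tcKO and at most 22.3 in the controls. The log2FC of Sgce was 0.77 (SE 0.25, adjusted p = 0.0802) versus Cre- and 0.68 (SE 0.25, adjusted p = 0.135) versus tHet, which did not pass. Sgce passed an adjusted p under 0.05 versus both controls with TMM and upper-quartile scaling, without CT010467.1 in the totals, and by edgeR and DESeq2. Its log2FC stayed short of the fold of a call, at 0.93 or less. The other genes of this cluster in the list examined are expressed from the maternal copy in some tissues. Ppp1r9a, which encodes the actin-binding protein neurabin, read 278 to 307 CPM in Cre-, 295 to 319.9 in tHet and 224 to 343 in Tet tcKO, with overlap of all genotypes. Asb4, a ubiquitin ligase adaptor, and Calcr, the calcitonin receptor, were too low to test.

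Nnat and Plagl1 are described in full because their values stood out, and were chosen after these were seen. Nnat (ENSMUSG00000067786.16, chr2:157560078-157562522) encodes neuronatin, a small membrane protein of developing neurons, and is expressed from the paternal copy. It read 14.4, 13.2 and 15.3 CPM in Cre-, 16.9, 13.5 and 24.4 in tHet and 50.8, 22.1 and 29.99 in Tet tcKO. Tet tcKO replicate 1 was the highest library, and tHet replicate 3 lay above Tet tcKO replicate 2. The log2FC of Nnat was 1.15 (SE 0.29, adjusted p = 0.0155) versus Cre- and 0.85 (SE 0.29, adjusted p = 0.0947) versus tHet. Versus Cre- it was 0.83 without Tet tcKO replicate 1 and 1.42 without Tet tcKO replicate 2, and Nnat was called in the latter case. Blcap, an apoptosis-related gene within which Nnat lies, read 24.98 to 28.3, 23.02 to 30.4 and 21.7 to 33.8 CPM in Cre-, tHet and Tet tcKO.

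Plagl1 (ENSMUSG00000019817.18, chr10:13060504-13131694) encodes a zinc finger transcription factor that restrains proliferation and is expressed from the paternal copy. It read 29.02, 22.7 and 45.8 CPM in Cre-, 36.6, 32.1 and 67.1 in tHet and 73.3, 73.7 and 58.04 in Tet tcKO. The third library of both control genotypes was higher than the other two, and tHet replicate 3 reached the Tet tcKO range. Without CT010467.1 in the totals, tHet replicate 3 (69.7 CPM of Plagl1) lay below all Tet tcKO libraries (73.4 to 81.4). Those totals raised the median log2FC of all genes by 0.14 versus Cre- and 0.13 versus tHet. Plagl1 did not pass an adjusted p under 0.05 versus tHet with them, nor with TMM or upper-quartile scaling, edgeR or DESeq2. The log2FC of Plagl1 was 1.11 (SE 0.28, adjusted p = 0.0169) versus Cre- and 0.66 (SE 0.28, adjusted p = 0.210) versus tHet. Without Cre- replicate 3 it was 1.39 versus Cre- (adjusted p = 0.00771), which passed as a call. Versus tHet, over all alternatives run, the log2FC of Plagl1 lay between 0.45 and 0.98, with an adjusted p from 0.0172 to 0.574. It was not called there.

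**Figure D2:**
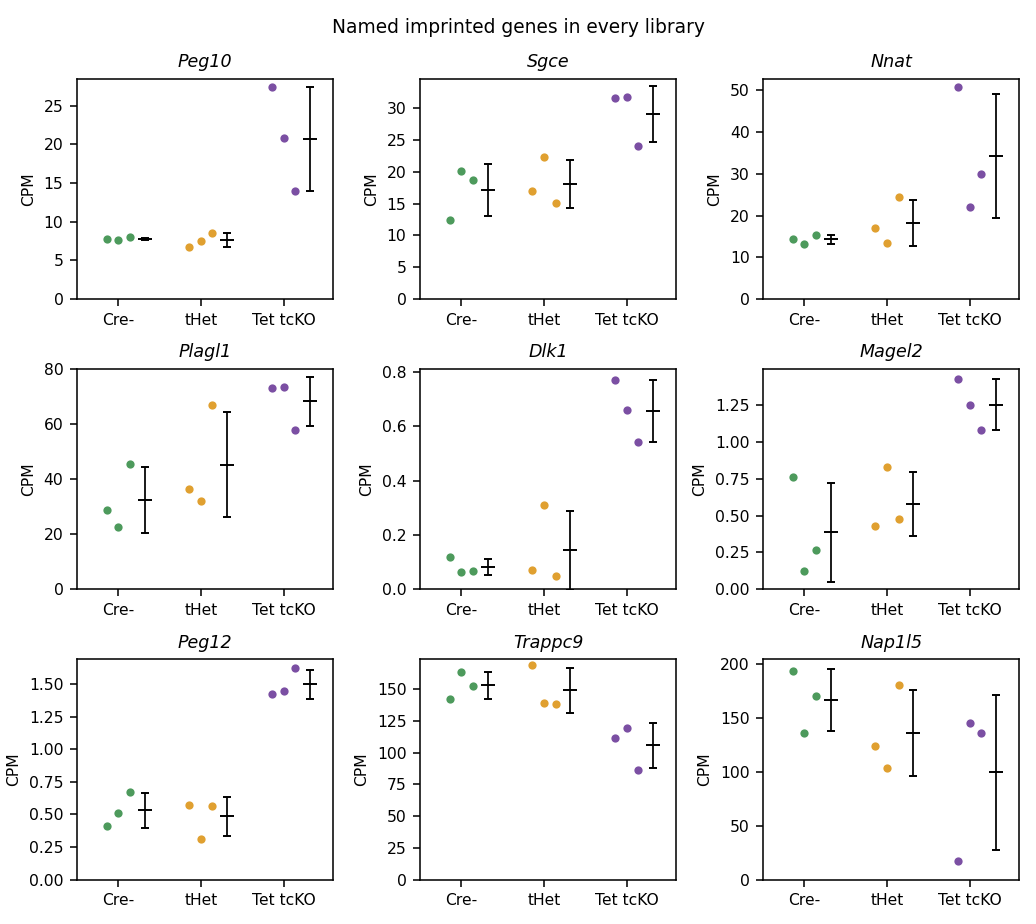
CPM in each library (points) with the mean ± SD of the 3 libraries of each genotype, on linear axes from 0, for the imprinted genes described in full. Tet tcKO points lie above all controls for Peg10, Sgce, Dlk1, Magel2 and Peg12 and below them for Trappc9, while a single Tet tcKO library sets the low mean of Nap1l5. The lower end of the tHet error bar of Dlk1 is cut at 0.

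The Dlk1-Dio3 domain on chromosome 12 holds protein-coding genes expressed from the paternal copy and noncoding RNAs expressed from the maternal copy. Dlk1 (ENSMUSG00000040856.17, chr12:109452823-109463336), a membrane protein related to Notch ligands, was near the detection limit. It had 2, 1 and 1 reads in Cre-, 1, 3 and 1 in tHet and 13, 10 and 9 in Tet tcKO. In CPM, Dlk1 read 0.118, 0.0636 and 0.0675 CPM in Cre-, 0.0720, 0.312 and 0.0474 in tHet and 0.772, 0.659 and 0.542 in Tet tcKO. All Tet tcKO libraries were above all controls. The ratio of read shares was 7.82 versus Cre- (32 reads against 4, 95% interval 2.77 to 30.4) and 5.87 versus tHet (32 against 5, 2.27 to 19.3), intervals that cover counting error only. The fitted log2FC, which the pseudocount reduces and which could be had only because Tet tcKO libraries passed the filter, was 0.99 (SE 0.29, adjusted p = 0.0494) versus Cre- and 0.87 (SE 0.29, adjusted p = 0.0980) versus tHet. Leaving out single Cre- or Tet tcKO libraries gave adjusted p of 0.0527 to 0.18 versus Cre-.

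Rtl1, a retrotransposon-derived gene of the same domain, read 4.00 to 8.59 CPM in Cre-, 5.69 to 7.53 in tHet and 5.82 to 9.36 in Tet tcKO. Dio3, which encodes the deiodinase that inactivates thyroid hormone, had 1 to 9 reads per library in Cre-, 8 to 37 in tHet and 7 to 16 in Tet tcKO. Both overlapped between Tet tcKO and the controls. Meg3 was the most abundant imprinted RNA and read 1065, 2102 and 2412 CPM in Cre-, 3062, 2923 and 2916 in tHet and 1483, 3477 and 2552 in Tet tcKO. The tHet libraries were close to each other and above all Cre- libraries, and the Tet tcKO libraries overlapped both. Rian, a host of small nucleolar RNAs, and Mirg, a host of microRNAs, read 207 to 359.7 CPM and 10.5 to 16.5 CPM over all libraries. Exons of Meg3, Rian and Mirg overlap small RNA genes on the same strand, so reads there are uncertain.

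In the Snrpn-Ube3a domain on chromosome 7, the lowly expressed Magel2 and Peg12 were higher in every Tet tcKO library and the abundant genes were not. Magel2 (ENSMUSG00000056972.6, chr7:62377010-62381640), a MAGE family protein that regulates ubiquitin ligases, read 0.765, 0.127 and 0.270 CPM in Cre-, 0.432, 0.831 and 0.474 in tHet and 1.43, 1.25 and 1.08 in Tet tcKO. Peg12 (ENSMUSG00000070526.2, chr7:62461871-62464510), related to the GSK3-binding FRAT proteins, read 0.412, 0.509 and 0.675 CPM in Cre-, 0.576, 0.312 and 0.568 in tHet and 1.43, 1.45 and 1.63 in Tet tcKO. For both genes no Tet tcKO library overlapped a control. The log2FC of Magel2 was 1.04 (SE 0.33, adjusted p = 0.0713) versus Cre- and 0.71 (SE 0.33, adjusted p = 0.269) versus tHet. That of Peg12 was 0.96 (SE 0.31, adjusted p = 0.0706) versus Cre- and 1.03 (SE 0.31, adjusted p = 0.0512) versus tHet. None of these passed, and that of Magel2 could be had only because Tet tcKO libraries passed the filter. With TMM or upper-quartile scaling, or without CT010467.1 in the totals, Peg12 passed an adjusted p under 0.05 versus both controls. By edgeR and DESeq2 Peg12 passed versus tHet only. Of these alternatives, Magel2 passed only versus Cre- without CT010467.1 in the totals. Neither gene was called. The values rest on 61 reads of Magel2 and 73 of Peg12 over the 3 Tet tcKO libraries. The ratio of read shares of Magel2 was 3.14 (1.85 to 5.56) versus Cre- and 2.33 (1.43 to 3.91) versus tHet. That of Peg12 was 2.85 (1.79 to 4.69) versus Cre- and 2.91 (1.80 to 4.88) versus tHet, and these 95% intervals cover counting error only.

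The other genes of the domain overlapped between genotypes, apart from Mkrn3 when CT010467.1 was left out of the totals. Mkrn3, a ubiquitin ligase gene that lies between Magel2 and Peg12, read 4.36 to 5.15 CPM in Cre-, 4.32 to 5.09 in tHet and 4.82 to 8.61 in Tet tcKO. Ndn, which encodes the neuronal MAGE protein necdin, read 35.4 to 58.3 CPM in Cre-, 32.1 to 41.5 in tHet and 35.7 to 75.3 in Tet tcKO. Snrpn, a spliceosome protein gene whose promoter lies at the imprinting control region, read 66.9 to 86.6 CPM in Cre-, 53.2 to 73.95 in tHet and 47.03 to 102 in Tet tcKO. Its exons overlap Snurf on the same strand. Ube3a, the ubiquitin ligase of Angelman syndrome that neurons express from the maternal copy, read 258 to 313 CPM in Cre-, 237 to 343 in tHet and 203 to 327 in Tet tcKO. Exons of Ube3a overlap the antisense Snhg14, and since the strand setting of the counting is not given in the sources used here, sense and antisense reads cannot be told apart.

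The Peg3 domain on chromosome 7 encodes the zinc finger proteins PEG3 and ZIM1 and the deubiquitinase-like USP29. Usp29 read 39.7, 42.7 and 44.9 CPM in Cre-, 38.7, 42.4 and 38.3 in tHet and 78.4, 71.9 and 43.9 in Tet tcKO. Replicates 1 and 2 of Tet tcKO stood above all other libraries, and replicate 3 was within the range of Cre-. Without CT010467.1 in the totals, replicate 3 read 61.6 CPM of Usp29, above every control. Peg3, transcribed divergently from Usp29 with 146 bases between the genes, read 275 to 423 CPM in Cre-, 362 to 436 in tHet and 295 to 506 in Tet tcKO. Zim1 read 3.36 to 4.64 CPM in Cre-, 3.22 to 3.67 in tHet and 3.61 to 5.60 in Tet tcKO. Neither Peg3 nor Zim1 separated Tet tcKO from the controls, and Zim1 did so without CT010467.1 in the totals. The log2FC of Usp29 was 0.56 (SE 0.23, adjusted p = 0.189) versus Cre- and 0.65 (SE 0.23, adjusted p = 0.108) versus tHet. Over the 5 other scalings and tests its adjusted p ranged from 0.00465 to 0.0651 versus Cre- and from 0.000396 to 0.0195 versus tHet, at a log2FC of 0.51 to 0.80 in both, so it was not called.

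Imprinted growth regulators gave no call. Igf2, an insulin-like growth factor, read 7.57 to 12.4 CPM in Cre-, 7.17 to 12.5 in tHet and 4.58 to 8.30 in Tet tcKO, and its exons overlap Gm49394 on the same strand. Igf2r, the receptor that clears IGF2, read 42.3 to 68.1 CPM over all 9 libraries. Cdkn1c, which encodes the cell cycle inhibitor p57, read 13.4 to 18.6 CPM in Cre-, 13.03 to 18.4 in tHet and 14.2 to 26.5 in Tet tcKO. In these genes the Tet tcKO range ran into that of the controls. Grb10, an adaptor that dampens insulin signalling, read 65.7 to 69.1 CPM in Cre-, 56.2 to 71.04 in tHet and 64.2 to 106 in Tet tcKO. Gnas, the stimulatory G protein alpha subunit, read 23.7 to 40.4 CPM in Cre-, 30.1 to 54.8 in tHet and 34.5 to 54.9 in Tet tcKO. Both again overlapped as deposited. Without CT010467.1 in the totals, Grb10 read 90.1 to 106 CPM in Tet tcKO, above every control, while Gnas still overlapped. Grb10 then passed an adjusted p under 0.05 versus both controls. Versus tHet Grb10 also passed with TMM scaling, edgeR and DESeq2, but not with upper-quartile scaling. Versus Cre- it passed with none of these 4.

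The long noncoding RNAs that silence neighbouring genes varied widely within genotypes. Kcnq1ot1 read 139.6, 584 and 456 CPM in Cre-, 758, 594 and 319 in tHet and 292, 613 and 351 in Tet tcKO. Airn, antisense to Igf2r, read 4.71, 15.6 and 10.9 CPM in Cre-, 15.8, 16.8 and 6.63 in tHet and 7.30, 8.76 and 5.90 in Tet tcKO. Cre- replicate 1 was the lowest library for Meg3, Kcnq1ot1 and Airn. The nuclear RNA Malat1 was also lowest there, at 7377 CPM against 10083 to 23150 in the other libraries. The part of this library in these values was not tested.

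**Figure D3:**
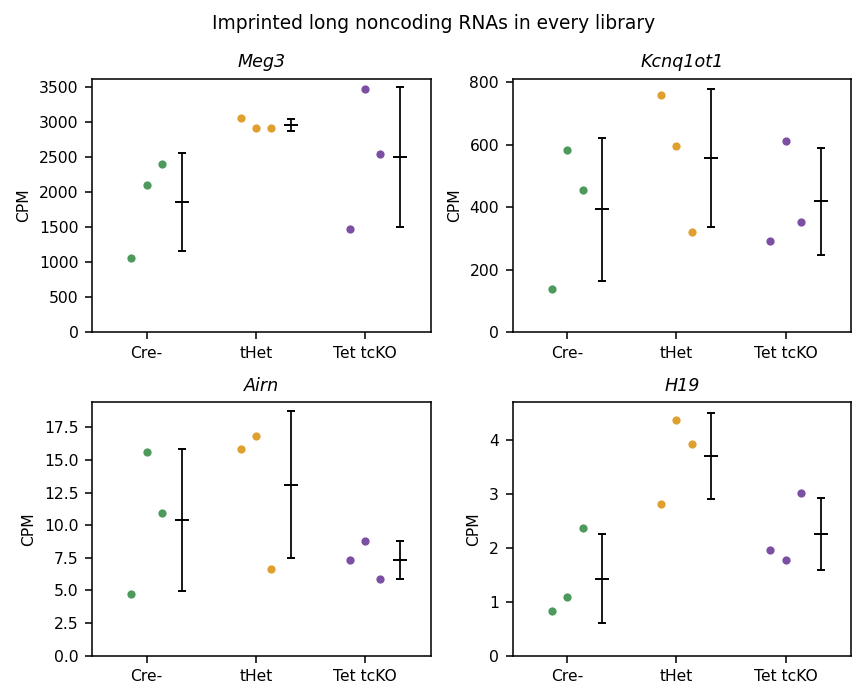
CPM of imprinted long noncoding RNAs in each library (points) with the mean ± SD of 3 libraries per genotype, on linear axes from 0. Libraries of the same genotype differ severalfold for Kcnq1ot1 and Airn, and H19 is higher in all tHet libraries than in all Cre- libraries.

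Trappc9 and Nap1l5 were the imprinted genes with a negative log2FC and an unadjusted p under 0.05 versus Cre-. Trappc9 (ENSMUSG00000047921.17, chr15:72589620-73061204), a subunit of a vesicle trafficking complex with a bias to the maternal copy in brain, read 142, 164 and 153 CPM in Cre-, 169, 139 and 138 in tHet and 112, 119.7 and 86.04 in Tet tcKO. Every Tet tcKO library was below every control. The log2FC of Trappc9 was -0.54 (SE 0.21, adjusted p = 0.156) versus Cre- and -0.50 (SE 0.21, adjusted p = 0.196) versus tHet, which did not pass. Versus Cre- Trappc9 passed an adjusted p under 0.05 with TMM and upper-quartile scaling, edgeR and DESeq2, but not without CT010467.1 in the totals. Versus tHet it passed with DESeq2 alone of these. Its log2FC stayed short of the fold of a call. Peg13, a noncoding RNA from the paternal copy inside Trappc9, read 101 to 121 CPM in Cre-, 80.9 to 113 in tHet and 71.5 to 126 in Tet tcKO. Kcnk9, the neighbouring potassium channel gene, read 25.4 to 27.4 CPM in Cre-, 25.9 to 33.96 in tHet and 17.3 to 33.01 in Tet tcKO. Both overlapped between genotypes.

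Nap1l5 (ENSMUSG00000055430.4, chr6:58905233-58907076), a retrogene related to histone chaperones within an intron of Herc3, read 193, 136 and 170.2 CPM in Cre-, 124, 103 and 180.1 in tHet and 16.98, 145 and 135 in Tet tcKO. A single library, Tet tcKO replicate 1, was at 16.98 CPM, and the other 8 were at 103 or above. The log2FC of Nap1l5 versus Cre- was -1.23 (SE 0.50, adjusted p = 0.191) with that library and -0.23 without it. Versus tHet it was -0.92 (SE 0.50, adjusted p = 0.373) and turned to 0.088 without it. Herc3, the ubiquitin ligase gene that hosts Nap1l5, read 402, 469 and 376 CPM in Cre-, 453, 494 and 338 in tHet and 286, 295 and 177 in Tet tcKO. Every Tet tcKO library of Herc3 was below every control, an order found in 4.82% of genes tested, and replicate 3 was the lowest. Nap1l5 and Herc3 are described in more detail after their values were seen.

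Retrogenes in introns of other host genes, and their hosts, gave no call. Mcts2, a translation factor retrogene, read 3.11 to 5.41 CPM over all libraries, and its host H13, the signal peptide peptidase gene, read 48.4 to 69.1 CPM. Zrsr1, related to a subunit of the splicing factor U2AF, read 101 to 197 CPM, and its host Commd1, which takes part in copper transport, read 17.01 to 22.5 CPM in Cre-, 16.00 to 18.7 in tHet and 12.9 to 17.04 in Tet tcKO. Exons of Zrsr1 and Commd1, and those of Mest and Copg2, overlap on opposite strands. Mest, a hydrolase-like gene, read 21.9 to 36.2 CPM, and Copg2, a coatomer subunit gene, read 39.5 to 73.7 CPM. Impact, a regulator of the GCN2 kinase, read 132 to 231 CPM, and Inpp5f, a phosphoinositide phosphatase gene, 45.2 to 78.8 CPM. Sfmbt2, a Polycomb group gene, read 4.47, 4.33 and 3.44 CPM in Cre-, 3.89, 5.30 and 3.55 in tHet and 6.77, 5.67 and 4.94 in Tet tcKO. Its Tet tcKO libraries lay above all Cre- libraries but overlapped tHet as deposited.

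The genes were also sorted by the parental copy they are generally known to express. Of the tested genes 24 were sorted as paternally expressed, 13 as maternally expressed, and 5 as differing between tissues or isoforms. The copy expressed in these retinas was not measured. Some genes sorted to a single copy, such as Ppp1r9a, are known to be imprinted in some tissues only. The sorting was made after the values were seen and received no test. The 5 genes that were higher in every Tet tcKO library than in all controls are among the 24 paternally expressed genes, and Dlk1 and Magel2 of these entered through the filter. Of the 13 maternally expressed genes 0 showed that order, against 5.32% of all genes. Without CT010467.1 in the totals, 9 of the 24 paternally and 2 of the 13 maternally expressed genes (H13 and Zim1) showed it, against 13.8% of all genes. The median log2FC of the paternally expressed genes was 0.23 versus Cre- and 0.17 versus tHet. For the maternally expressed genes it was 0.11 versus Cre- and -0.08 versus tHet, the latter turning to 0.06 without the CT010467.1 reads. Nap1l5 (-1.23), Igf2 (-0.65) and Airn (-0.35), also paternally expressed, had the lowest log2FC of that group versus Cre-.

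**Figure D4:**
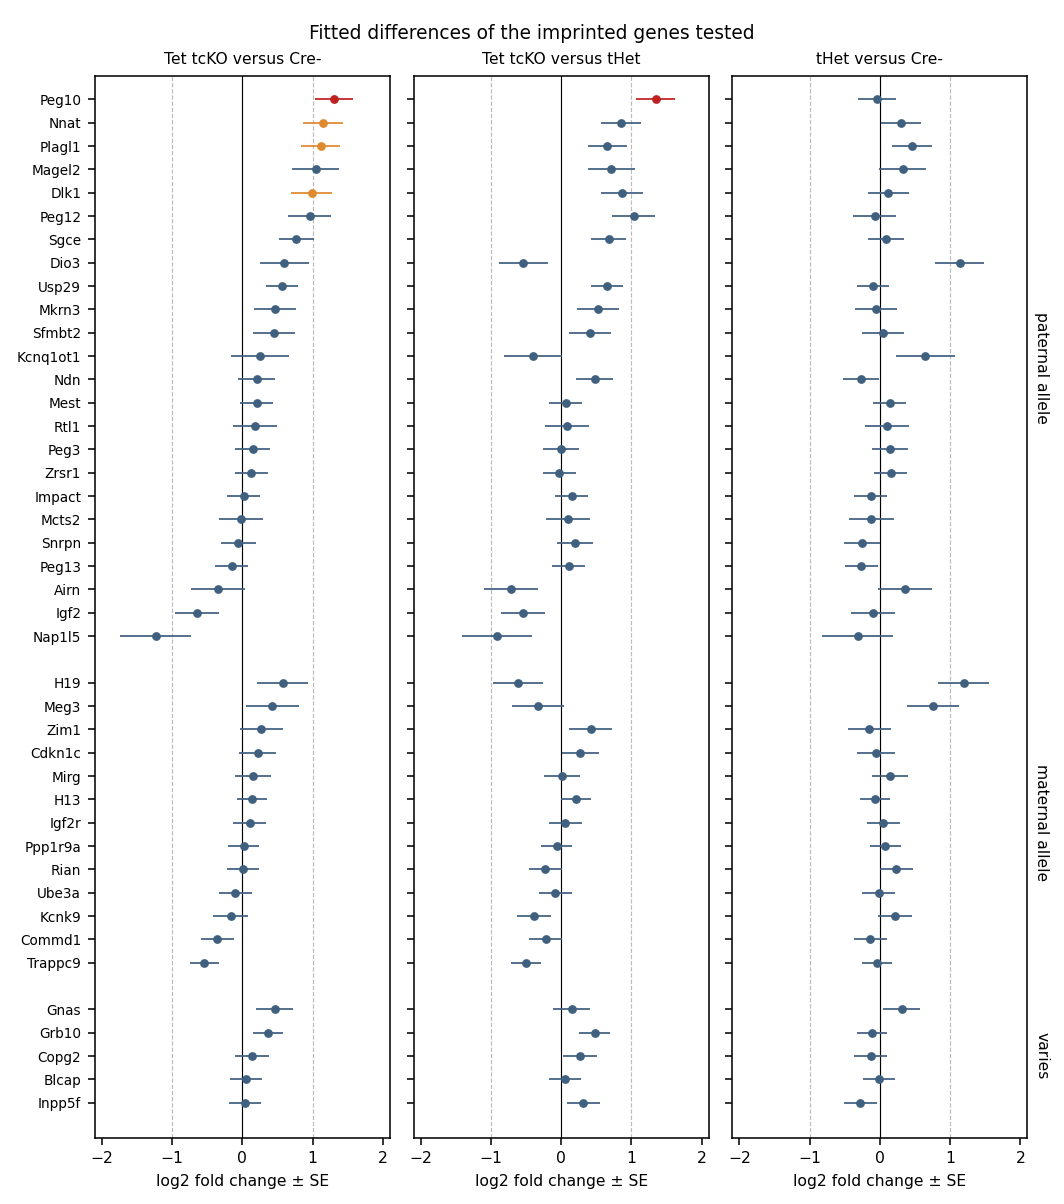
Fitted log2 fold change ± SE of the 42 imprinted genes tested in each of the 3 comparisons, grouped by the parental copy expressed (red, called; orange, adjusted p under 0.05 without a call; blue, others). Peg10 is the red point in both Tet tcKO comparisons, and Nnat, Plagl1 and Dlk1 are orange versus Cre- only.

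Between the control genotypes, limma called 0 of 42 imprinted genes, where 0.0422% of all genes were called. At an unadjusted p under 0.05 there stood 2 genes, H19 and Dio3, against 4.55% of all genes. By edgeR and DESeq2 the count of calls was also 0, with 3 genes each at an unadjusted p under 0.05. H19, a long noncoding RNA from the maternal copy at the Igf2 locus, read 0.824, 1.08 and 2.36 CPM in Cre-, 2.81, 4.36 and 3.93 in tHet and 1.96, 1.78 and 3.01 in Tet tcKO. Every tHet library was above every Cre- library, with a log2FC of 1.19 (SE 0.36, adjusted p = 0.610). Dio3 read 0.530, 0.191 and 0.0675 CPM in Cre-, 0.936, 0.831 and 1.75 in tHet and 0.416, 1.05 and 0.482 in Tet tcKO, and its log2FC between tHet and Cre- was 1.14 (SE 0.35, adjusted p = 0.671). Every tHet library was again above every Cre- library, as it was for Meg3, so that 3 genes had this order (5.78% of all genes). Inpp5f alone had the opposite order (5.37%). The median log2FC of the 42 genes was 0.01, with 21 above 0, against 58.2% of all genes. The ciliary body and vitreous matrix markers were also higher in tHet than in Cre-, at 342 to 504 against 119.9 to 167 CPM, and their part in these values was not tested.

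Of 20 factors that read or maintain imprints, 16 were tested. Limma called 0 in every comparison, where 3.60%, 3.00% and 0.0422% of all genes were called in Tet tcKO versus Cre-, Tet tcKO versus tHet and tHet versus Cre-. At an unadjusted p under 0.05 there were 1, 2 and 1 of the 16 in that sequence, against 16.1%, 17.5% and 4.55% of all genes. By edgeR and DESeq2, 1 was called in Tet tcKO versus Cre- (Zfp57 in both) and 0 in the other comparisons. The median log2FC of the 16 was 0.16 versus Cre- and 0.07 versus tHet. Among the most abundant, Dnmt3a, a de novo DNA methyltransferase, read 505 to 603 CPM in Cre-, 711 to 865 in tHet and 586 to 918 in Tet tcKO, and the chromatin remodeller Atrx read 458 to 628 CPM in Cre-, 609 to 643 in tHet and 651 to 804 in Tet tcKO. Arid4b, a chromatin regulator of imprinting, read 256 to 339 CPM in Cre-, 317 to 363 in tHet and 279 to 329 in Tet tcKO. Zfp445, a zinc finger protein gene whose product binds imprinting control regions, read 194 to 325 CPM in Cre-, 239 to 344 in tHet and 219.6 to 303 in Tet tcKO. Zfp57, whose product binds methylated TGCCGC at imprinting control regions, was chosen after its values were seen and read 5.42, 7.89 and 5.87 CPM in Cre-, 7.34, 8.52 and 7.30 in tHet and 12.5, 15.7 and 12.4 in Tet tcKO. Every Tet tcKO library of Zfp57 was above every control. Atrx had the same order, which was found in 5.32% of genes tested. The log2FC of Zfp57 was 1.04 (SE 0.27, adjusted p = 0.0199) versus Cre- and 0.77 (SE 0.27, adjusted p = 0.105) versus tHet.

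Of 41 further imprinted genes, 38 were found and 27 were tested. In Tet tcKO versus Cre- 1 of the 27 was called higher, where 2.03% of all genes were, and 5 had an unadjusted p under 0.05 (16.1% of all genes; 10 by edgeR and by DESeq2). The called gene, Ano1, encodes a calcium-activated chloride channel and read 2.47, 2.23 and 3.24 CPM in Cre-, 4.18, 6.96 and 5.26 in tHet and 10.9, 7.12 and 6.56 in Tet tcKO. The log2FC of Ano1 was 1.44 (SE 0.31, adjusted p = 0.00568) versus Cre- and 0.54 (SE 0.31, adjusted p = 0.417) versus tHet. All tHet libraries of Ano1 also lay above all Cre- libraries. Limma called 0 in Tet tcKO versus tHet (5 at an unadjusted p under 0.05, against 17.5% of all genes), where edgeR and DESeq2 both called Gab1. In tHet versus Cre- limma called 0 (2 at an unadjusted p under 0.05, against 4.55%), as did both other tools. The median log2FC of the 27 was 0.13 versus Cre- and 0.14 versus tHet. The most abundant, Herc3, Nap1l4, Phactr2 and Snhg14, were not called. Pon2 and Gab1 were higher in every Tet tcKO library than in all controls (5.32% of all genes), and Herc3 was lower (4.82%). Pon2, chosen after its values were seen and not called, read 8.01, 8.91 and 7.49 CPM in Cre-, 6.26, 7.58 and 6.92 in tHet and 13.4, 14.4 and 9.33 in Tet tcKO. Zdbf2, a paternally expressed zinc finger gene, was chosen after its values were seen and read 41.3, 37.4 and 42.7 CPM in Cre-, 36.7, 55.98 and 48.7 in tHet and 102, 88.2 and 51.5 in Tet tcKO. Its Tet tcKO replicate 3 lay within the tHet range, but at 72.3 CPM of Zdbf2, above all controls, without CT010467.1 in the totals. Its log2FC was 0.93 (SE 0.25, adjusted p = 0.0256) versus Cre- and 0.73 (SE 0.25, adjusted p = 0.0965) versus tHet. Without CT010467.1 in the totals, limma called Zdbf2 versus Cre- (1.09, adjusted p = 0.00218). TMM and upper-quartile scaling, edgeR and DESeq2 did not call it. Versus tHet its adjusted p over these 5 alternatives was 0.00701 to 0.0469, at a log2FC of 0.76 to 0.87, so it was not called there.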

How the data were processed

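Retinal RNA was depleted of ribosomal RNA and prepared with a stranded total RNA kit. Per the labels and the study's methods, reads were trimmed with Trim Galore (0.6.7), aligned to mm10 with STAR (2.7.0f) and counted per gene with HTSeq (0.11.2). The gene annotation release and the strand setting of the counting are not given in the sources used here. The authors deposited CPM per library, scaled to 1000000 reads on genes. Their own fold changes, p-values and averages stand in further columns and were not used. Whole reads were recovered for 100.0% of values (tolerance 0.01 read).

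Groups were taken from the sample titles. The main test was limma (3.58.1, trend) on log2(CPM + 0.5) over all 9 libraries, with genes of at least 0.5 CPM in at least 3 libraries (21330 genes), a mean per genotype and Benjamini-Hochberg adjustment. The unit is not raw counts, so edgeR (4.0.16) and DESeq2 (1.42.0) on recovered reads were alternatives only. Other alternatives were pseudocounts, filters, scalings, a replicate block, only the 6 libraries compared, and each library left out. The fit was tested on simulated data. Replicate numbers are shared between genotypes but come from different animals. Libraries of the same genotype differed by more than sampling noise (chi-square per degree of freedom from 15.0), and p-values measure the spread between these pools only. Positions and exon lengths are from GENCODE vM21. All genes of the list are given, with full statistics where called or where all Tet tcKO libraries lay beyond all controls, and otherwise by ranges. Nnat, Plagl1, Nap1l5, H19, Dio3, Usp29, Meg3, Kcnq1ot1, Airn and Sfmbt2, and outside the list Zfp57, Zdbf2, Gab1, Pon2 and Herc3, were given in more detail after their values were seen. The genes and lists were chosen with earlier results of these data known.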

Additional observations from a re-analysis of the deposited data

How the results depend on the processing

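Versus Cre- the main fit called 1 imprinted gene (Peg10). The count was 0 with all genes kept irrespective of level, 2 by DESeq2 (Nnat and Peg10), 3 in a fit of only the 6 libraries compared and 3 at an adjusted p under 0.05 with the same fold (Nnat, Peg10 and Plagl1 in both). Leaving out 1 library gave 0 to 1 calls versus Cre-, with 0 without Cre- replicate 2 or Tet tcKO replicate 1, Plagl1 without Cre- replicate 3 and Nnat without Tet tcKO replicate 2. Versus tHet the count was 1 (Peg10), 0 with all genes kept, and 0 to 1 with a library left out, 0 without tHet replicate 1 or 2 or Tet tcKO replicate 1 or 2. In tHet versus Cre- it was 0 under every alternative run. Pseudocounts of 0.1 and 1, a filter at 1 CPM, TMM and upper-quartile scaling, totals without CT010467.1 and edgeR left 1 call (Peg10) in both Tet tcKO comparisons. The cause of these changes was not tested.

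Blocking on the replicate number gave 3 calls versus Cre- (Nnat, Peg10 and Plagl1) and 1 versus tHet. Deviations of same-numbered libraries correlated at -0.35 to 0.56, and 5 of 9 libraries correlated best with their own number, so the numbers were not treated as pairs. Of the 20 log2 fold changes followed, Nap1l5 versus tHet alone changed direction, ranging from -1.44 to 0.088 with a library left out. The log2FC of Dlk1 versus Cre- ran from 0.61 with a pseudocount of 1 to 2.96 by DESeq2. At 1 read per 0.0474 to 0.104 CPM, depth limits what Dlk1, Dio3, Magel2 and Peg12 can show.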

Other observations

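In Tet tcKO replicate 1, the library with the low Nap1l5 value (16.98 CPM), Peg10 (27.4 CPM) and Nnat (50.8 CPM) had their highest value of the 9 libraries. The short-wavelength cone opsin Opn1sw was also highest there, at 521 CPM against 295 and 265 in the other Tet tcKO libraries. Whether these values are connected was not tested.

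Gab1, an adaptor of growth factor receptors among the further imprinted genes, was singled out after its values were seen. It read 16.9, 16.5 and 19.2 CPM in Cre-, 13.8, 17.3 and 13.4 in tHet and 36.8, 33.1 and 20.9 in Tet tcKO. No Tet tcKO library overlapped a control. The log2FC of Gab1 was 0.97 (SE 0.25, adjusted p = 0.0209) versus tHet and 0.74 (SE 0.25, adjusted p = 0.0914) versus Cre- by limma. Versus tHet it was called by edgeR (1.07, adjusted p = 0.00191) and DESeq2 (1.07, adjusted p = 1.43e-06), and by limma with TMM scaling (1.04, adjusted p = 0.00177) or without CT010467.1 in the totals (1.11, adjusted p = 0.00127). With upper-quartile scaling it fell short of the fold (0.997, adjusted p = 0.00398). Versus Cre- the adjusted p over these alternatives was 0.00122 to 0.0304, at a log2FC of 0.69 to 0.90, so Gab1 was not called there.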
